A study of Mus musculus with 8 samples.

Results

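The genes described here are 10 early response genes of the mouse kidney: the transcription factor genes Egr1, Nr4a1, Klf2, Klf4 and Klf6, the immediate early response genes Ier2, Ier3 and Ier5, and Btg2 and Zfp36, whose proteins act on mRNA. They were taken by gene name, and each name matched 1 row, so that 10 of the 54532 genes of the table are members. All 10 passed the filter on low values used for testing, a mean of at least 0.5 FPKM (reads scaled to gene length and library size) over the 8 libraries, and each also had a mean above 0.5 FPKM in either group. The libraries were made from polyadenylated RNA of whole kidney of ICR mice, an outbred stock, with 4 libraries from the group given bisphenol A (BPA), a building block of polycarbonate plastics with weak estrogen activity, and 4 from the group given vehicle. The sources used here give no genotype, age, dose, route or duration. They also do not say whether each library came from its own animal, so p-values reflect the spread among these 8 libraries alone, and that spread may be technical. The comparison asks whether transcripts of these genes differed between BPA and vehicle kidney.

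Early response genes are transcribed within minutes of a stimulus from promoters that are already occupied, without new protein synthesis, and their mRNAs decay quickly. Growth factors and stress act on them through ERK, which phosphorylates partners of serum response factor (SRF) bound at CArG boxes, and cyclic AMP and calcium act through CREB bound at CRE sites. In endothelium, shear stress raises Klf2 and Klf4 through ERK5 and MEF2 factors. Handling of a tissue before it is frozen can also induce such genes. Egr1, Nr4a1, Klf2, Klf4 and Klf6 then act as transcription factors on further genes, whereas Zfp36 and Btg2 shorten the life of other mRNAs by bringing them to the CCR4-NOT deadenylase.

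Promoter sequences are shown for 4 members because each holds a different one of these regulatory elements. RefSeq promoter windows of build GRCm38.p6, from 250 bases before to 50 after the start of the gene, were found for 8 members, all except Egr1 and Ier2, and the 250 bases before the start are printed 5′ to 3′ on the gene's own strand. The RefSeq starts of Klf2, Nr4a1 and Zfp36 lie inside the gene bounds of the deposited table, downstream of its outermost start. Capitals mark the MEF2 site and the EGR site in Klf2 (chr8:72318812-72319061, plus strand), the full CRE in Btg2 (chr1:134079156-134079405, minus strand), the core CGTCA of a CRE in Nr4a1 (chr15:101266596-101266845, plus strand) and the CArG box in Zfp36 (chr7:28379229-28379478, minus strand).
Klf2: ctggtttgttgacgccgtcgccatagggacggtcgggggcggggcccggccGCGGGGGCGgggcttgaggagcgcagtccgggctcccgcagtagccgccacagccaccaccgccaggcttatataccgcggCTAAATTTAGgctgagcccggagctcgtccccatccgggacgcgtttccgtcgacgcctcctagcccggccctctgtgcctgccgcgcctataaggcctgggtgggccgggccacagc
Btg2: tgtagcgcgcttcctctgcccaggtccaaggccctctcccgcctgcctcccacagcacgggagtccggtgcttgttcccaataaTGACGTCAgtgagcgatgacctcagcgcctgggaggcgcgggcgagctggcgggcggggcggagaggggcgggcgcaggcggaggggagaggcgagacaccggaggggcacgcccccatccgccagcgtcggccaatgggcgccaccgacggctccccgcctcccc
Nr4a1: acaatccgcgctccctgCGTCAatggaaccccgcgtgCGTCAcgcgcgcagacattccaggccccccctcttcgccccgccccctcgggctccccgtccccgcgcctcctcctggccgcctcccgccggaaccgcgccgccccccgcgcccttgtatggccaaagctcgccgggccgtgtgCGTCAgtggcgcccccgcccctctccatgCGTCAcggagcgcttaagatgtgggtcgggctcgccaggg
Zfp36: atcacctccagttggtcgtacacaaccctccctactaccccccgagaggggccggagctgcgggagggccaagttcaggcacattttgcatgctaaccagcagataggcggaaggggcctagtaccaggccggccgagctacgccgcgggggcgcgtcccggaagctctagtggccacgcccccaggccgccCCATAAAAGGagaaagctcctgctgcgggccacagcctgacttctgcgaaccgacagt

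Each motif was searched on both strands of the 300-base windows of the 8 members and of all 32851 promoters in the table. A MEF2 site was found in 1 of 8 members, Klf2, where it began 118 bases before the start, and in 0.557% of all promoters. The full CRE, TGACGTCA, was found in Btg2 alone among the 8, 166 bases before the start, and in 1.79% of all promoters. Its core, TGACG, was found in 4 of 8 members (Btg2, Klf2, Klf4 and Nr4a1), with 4 copies in Nr4a1, and in 20.8% of all promoters. The 2 copies in Btg2 lay inside its full CRE. A CArG box was found in Zfp36 alone among the 8, 58 bases before the start and overlapping a GC box, and in 1.63% of all promoters. The EGR site, GCGGGGGCG or GCGTGGGCG, was found in 4 of 8 members (Klf2, Klf4, Nr4a1 and Zfp36) and in 3.47% of all promoters, and in Klf2, Klf4 and Nr4a1 it overlapped a GC box. The GC box, GGGCGG, was found in 8 of 8 members and in 35.7% of all promoters. These matches describe letters in a window and say nothing of occupancy in these kidneys.

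Levels of the 10 genes in vehicle kidney spanned a wide range. Ordered by mean FPKM, a level per gene length, the vehicle libraries gave Ier3 (26.1), Ier2 (16.2), Zfp36 (11.5), Klf2 (7.91), Btg2 (4.87), Klf6 (4.61), Ier5 (4.11), Egr1 (3.56), Nr4a1 (2.15) and Klf4 (1.27). Most neighbours in this order were not separated: Ier3 was above Ier2 in 2 of 4 libraries, Btg2 above Klf6 in 2 of 4 and Egr1 above Nr4a1 in 2 of 4. The ranges of Ier2 and Zfp36 did not overlap, nor did those of Zfp36 and Klf2. In the BPA libraries Klf6 came next after Zfp36, at a mean of 5.27 FPKM, above Klf2 in 3 of 4 libraries, and Egr1 stood last at 0.542 FPKM.

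Between the groups, 9 of 10 members had a lower mean in BPA, and the median log2 change over the 10 was -0.70, beside -0.01 over all 13376 genes tested and 52.0% of those lower. Changes were computed on log2(FPKM + 1), and the added 1 shrinks those of low genes. No member passed limma's test at a Benjamini-Hochberg adjusted p under 0.05 over all genes tested, where 1 gene passed (0.00748%). At an unadjusted p under 0.05, 6 members were lower (Zfp36, Nr4a1, Ier2, Klf2, Btg2 and Egr1), beside 6.83% of all genes tested, and 0 were higher, beside 4.18%. With limma-voom on recovered reads, 0 members passed. At an unadjusted p under 0.05, 5 were lower in that fit, the same genes without Egr1, beside 6.67% of all genes. The 4 BPA values lay below all 4 vehicle values in 2 members, Zfp36 and Nr4a1, beside 4.66% of all genes tested, and above them in 0, beside 3.23%. That count was 6 without vehicle replicate 3, beside 6.03% of all genes, and also 6 without BPA replicate 2, beside 7.40%. Replicates 1 and 2 of both groups stood apart from replicates 3 and 4 in clock genes, whose values come last, so each pair of replicates was also taken alone. The count was 8 within replicates 1 and 2, where 23.0% of all genes have no overlap in this direction, and 8 within replicates 3 and 4, beside 26.1%. Within replicates 3 and 4 Klf6 lay the other way, with both BPA values above both vehicle values, beside 24.1% of all genes. With a term for that division, 7 members were lower at an unadjusted p under 0.05, Ier5 being the added one, beside 7.88% of all genes. With the replicate number as a block there were also 7, beside 6.60%. The members were chosen with earlier results of these data known, so their shared direction is a description and not independent evidence.

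**Figure D1:**
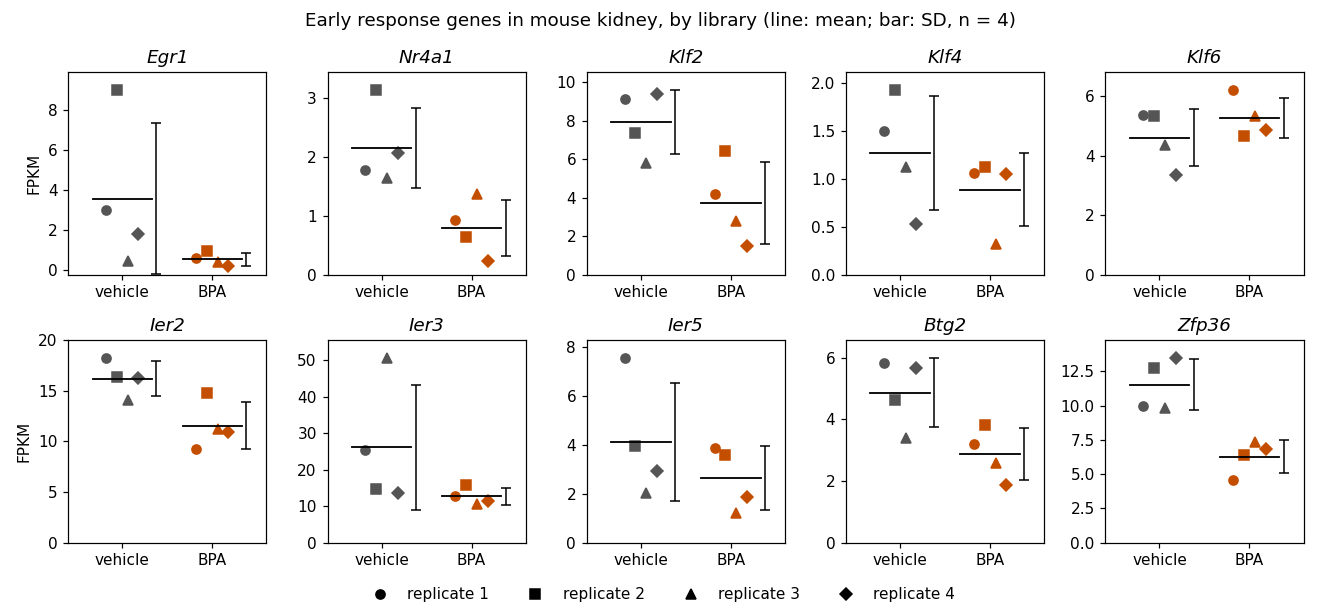
FPKM (vertical axes, each from its own scale) of the 10 members in the 4 vehicle and 4 BPA libraries, with the mean as a line and the SD as a bar (n = 4). Zfp36 and Nr4a1 are the 2 genes whose groups do not overlap, and single vehicle libraries stand high in Egr1 (replicate 2, 8.98 FPKM), Ier3 (replicate 3, 50.6) and Ier5 (replicate 1, 7.55).

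Among the transcription factors, Egr1, a zinc finger activator induced by growth factors (ENSMUSG00000038418, 18:34859823-34864984, plus strand), varied most. Its level was 2.98, 8.98, 0.461 and 1.80 FPKM in vehicle replicates 1 to 4 and 0.604, 0.951, 0.425 and 0.189 FPKM in BPA replicates 1 to 4. Vehicle replicate 2 was the highest, vehicle replicate 3 lay within the BPA range, and the groups overlapped. The vehicle values differed by 19.5-fold from lowest to highest and the BPA values by 5.03-fold. Counting error was smaller than these gaps. In vehicle, 720 reads in replicate 2 (exact 95% Poisson interval 668 to 775) stood beside 32 in replicate 3 (21.9 to 45.2). In BPA, 72 reads in replicate 2 (56.3 to 90.7) stood beside 14 in replicate 4 (7.65 to 23.5). These intervals cover counting error only. The group means were 3.56 ± 3.76 and 0.542 ± 0.321 FPKM (SD, n = 4), a log2 change of -1.23 (SE 0.502, limma adjusted p = 0.432). The change was -0.74 without vehicle replicate 2 and -0.64 within replicates 3 and 4, against -1.83 within replicates 1 and 2. With limma-voom on reads, where no 1 is added, it was -2.27 with a wider SE of 1.09 (limma-voom adjusted p = 0.460). Its unadjusted p was not under 0.05 in that fit.

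Nr4a1, an orphan nuclear receptor gene induced through CREB and MEF2 (ENSMUSG00000023034, 15:101254269-101274795, plus strand), was lower in every BPA library than in any vehicle library. It was at 1.77, 3.13, 1.64 and 2.07 FPKM in vehicle replicates 1 to 4 and at 0.936, 0.641, 1.37 and 0.241 FPKM in BPA replicates 1 to 4. As with Egr1, vehicle replicate 2 was highest and BPA replicate 4 lowest. The means were 2.15 ± 0.673 and 0.796 ± 0.474 FPKM, 2.70-fold apart, with a log2 change of -0.83 (SE 0.221, 95% interval -1.33 to -0.33, limma adjusted p = 0.359), and a change of -1.63 with limma-voom on reads.

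Klf2, a zinc finger factor of quiescent endothelium and lymphocytes (ENSMUSG00000055148, 8:72319033-72321656, plus strand), was at 9.10, 7.36, 5.81 and 9.38 FPKM in vehicle replicates 1 to 4 and at 4.21, 6.44, 2.79 and 1.47 FPKM in BPA replicates 1 to 4. Only BPA replicate 2 reached into the vehicle range. The means were 7.91 ± 1.67 and 3.73 ± 2.13 FPKM, a log2 change of -1.01 (SE 0.313, limma adjusted p = 0.374). Replicates 1 and 2 alone gave a change of -0.56, replicates 3 and 4 alone gave -1.46, and leaving out both replicates 4 gave -0.66. Its relative Klf4 (ENSMUSG00000003032, 4:55527143-55532466, minus strand), known in endothelium and in differentiating epithelia, was the lowest member in vehicle. Its values were 1.50, 1.93, 1.12 and 0.529 FPKM in vehicle and 1.06, 1.13, 0.322 and 1.05 FPKM in BPA, in replicate order. The groups overlapped broadly, and the 95% interval of the log2 difference ran from -0.78 to 0.28 (limma adjusted p = 0.674). Its log2 change of -0.25 was -0.12 when vehicle replicate 2 was left out, -0.09 when BPA replicate 3 was and -0.43 when vehicle replicate 4 was.

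Klf6, a broadly expressed Krüppel-like factor studied in kidney injury (ENSMUSG00000000078, 13:5861482-5870394, plus strand), was the 1 member with a higher mean in BPA. It was at 5.37, 5.34, 4.37 and 3.34 FPKM in vehicle replicates 1 to 4 and at 6.19, 4.67, 5.34 and 4.86 FPKM in BPA replicates 1 to 4. All 4 BPA values were above the vehicle mean of 4.61 FPKM, but 3 of them lay inside the vehicle range. The log2 change was 0.17 (SE 0.147, 95% interval -0.16 to 0.51, limma adjusted p = 0.648), with 0.01 from replicates 1 and 2 alone and 0.34 from replicates 3 and 4 alone. It was 0.05 when vehicle replicate 4 was left out, 0.10 when BPA replicate 1 was, and 0.08 with a trend on GC content removed.

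Of the IER genes, whose small proteins are induced by serum and stress, Ier2 was the most even between libraries. Ier2, which encodes a nuclear protein (ENSMUSG00000053560, 8:84661331-84662852, minus strand, a single exon), was at 18.2, 16.3, 14.1 and 16.2 FPKM in vehicle and at 9.24, 14.8, 11.2 and 10.9 FPKM in BPA, in replicate order. Only BPA replicate 2 was above the lowest vehicle value. The log2 change was -0.47 (SE 0.145, limma adjusted p = 0.374), and -0.23 after a trend on GC content was removed from each library.

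Ier3, whose protein modulates ERK signalling and survival (ENSMUSG00000003541, 17:35821684-35822923, plus strand), was at 25.4, 14.8, 50.6 and 13.6 FPKM in vehicle and at 12.8, 15.9, 10.6 and 11.6 FPKM in BPA, in replicate order. Vehicle replicates 3 and 1 were high, whereas vehicle replicates 2 and 4 lay within the BPA range. The log2 change of -0.80 (SE 0.368, limma adjusted p = 0.463) was -0.43 without vehicle replicate 3. Ier5, linked to the heat shock response (ENSMUSG00000056708, 1:155096361-155099636, minus strand, a single exon), was at 7.55, 3.96, 2.01 and 2.94 FPKM in vehicle and at 3.89, 3.58, 1.20 and 1.88 FPKM in BPA. Replicates 1 and 2 were higher than replicates 3 and 4 in both groups. Its log2 change was -0.46 (95% interval -1.27 to 0.36, limma adjusted p = 0.623), -0.17 when vehicle replicate 1 was left out and -0.24 when BPA replicate 3 was.

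Both mRNA decay factors had a lower mean in BPA. Zfp36, which encodes tristetraprolin, a protein that binds AU-rich elements and recruits the deadenylase (ENSMUSG00000044786, 7:28376784-28380253, minus strand), was at 9.99, 12.8, 9.85 and 13.5 FPKM in vehicle replicates 1 to 4 and at 4.55, 6.37, 7.35 and 6.82 FPKM in BPA replicates 1 to 4. The highest BPA value was below the lowest vehicle value. The means were 11.5 ± 1.86 and 6.27 ± 1.21 FPKM, 1.84-fold apart, with a log2 change of -0.79 (SE 0.159, 95% interval -1.15 to -0.43, limma adjusted p = 0.271). It had the smallest p of the 10 and stood at rank 38 of 13376 genes. Gm44710, an antisense gene, overlaps 1274 bases of it and was at 1.04 FPKM or less. Whether counting used strand is not given in the sources used here, so reads of this pair cannot be told apart.

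Btg2, an antiproliferative gene and p53 target whose protein binds the deadenylase (ENSMUSG00000020423, 1:134075170-134079120, minus strand), was at 5.81, 4.61, 3.39 and 5.65 FPKM in vehicle and at 3.21, 3.82, 2.57 and 1.85 FPKM in BPA, in replicate order. Only BPA replicate 2 was above the lowest vehicle value, that of replicate 3. The log2 change was -0.61 (SE 0.197, 95% interval -1.05 to -0.16, limma adjusted p = 0.374), and -0.40 without both replicates 4.

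**Figure D2:**
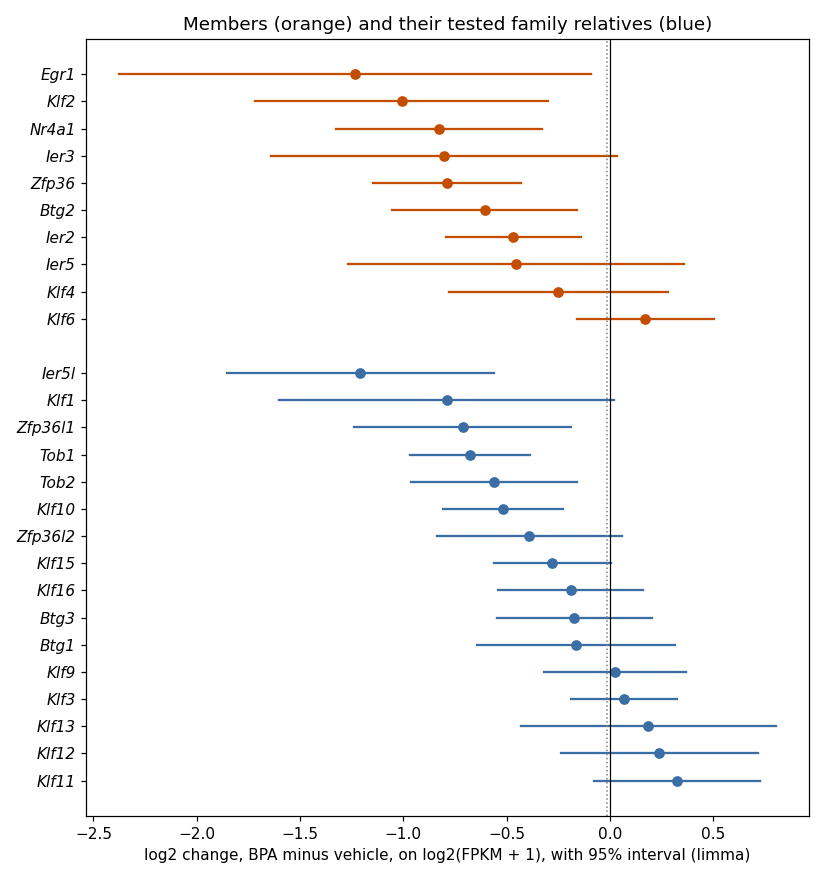
Log2 change, BPA minus vehicle, of log2(FPKM + 1) with its 95% interval from limma (horizontal axis) for the 10 members and their 16 tested family relatives, each on its own line. The dotted line is the median of all genes tested (-0.01), and intervals are for single genes with no adjustment. Of the members, 9 lie left of 0 and Klf6 lies right of it (0.17).

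The spread between libraries was larger in these genes than in most. The median SD of log2(FPKM + 1) within groups was 0.356 over the members and 0.225 over all genes tested. Egr1 (0.845), Ier3 (0.616) and Ier5 (0.597) exceeded 97.1%, 93.4% and 92.8% of tested genes in this SD, whereas Ier2 (0.211) and Klf6 (0.214) exceeded 45.6% and 46.5%. The spread was not confined to vehicle: the vehicle SD was the larger in 5 of 10 members, beside 39.5% of tested genes. For Klf2 the coefficient of variation was 21.0% in vehicle and 57.0% in BPA, and for Ier3 it was 65.8% and 18.1%.

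Libraries within a group held different parts of the pattern. The highest of the 8 values was in a vehicle library in 9 of 10 members, beside 47.3% of tested genes, and the lowest in a BPA library in 9 of 10, beside 55.7%. Within vehicle, replicate 1 was highest in 4 members and replicate 2 in 3, beside 21.7% and 23.8% of tested genes. Vehicle replicate 3 was lowest in 7, beside 23.1%. Within BPA, replicate 2 was highest in 6 members, beside 24.4% of tested genes, and replicate 4 lowest in 4. BPA replicate 4 had the lowest value of its group in 36.7% of all tested genes and the highest in 32.5%, while it was highest in 0 members. Without it the members' median log2 change was -0.57, and without both replicates 4 it was also -0.57.

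**Figure D3:**
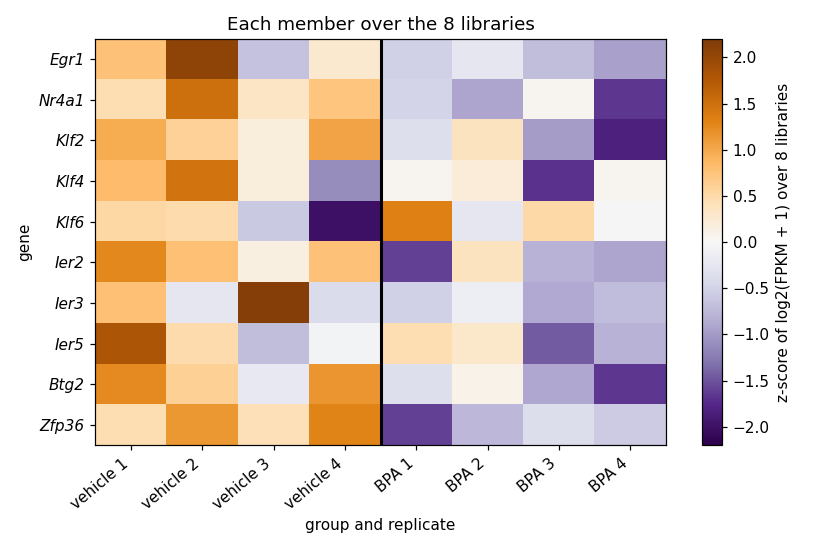
Z-score of log2(FPKM + 1) over the 8 libraries (colour) for each member (rows) in each library (columns, the line divides vehicle from BPA). Orange is above and purple below the gene's own mean, and the mean z-score of the 10 members runs from 0.91 in vehicle replicate 1 to -0.91 in BPA replicate 4.

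Each member was set beside the mean profile of the other 9 over the 8 libraries, as a description in which all genes share the libraries and the group difference. Pearson's r was 0.83 for Btg2, 0.82 for Klf2, 0.82 for Egr1 and 0.79 for Ier2, against 0.33 for Ier3 and -0.21 for Klf6. Outside the members, the 5 tested genes most like the mean profile of the 10 by Pearson's r over 8 libraries were Maz (0.97), Kti12 (0.97), Irf2bpl (0.96), Creld2 (0.96) and Zfp865 (0.96). Irf2bpl was at means of 15.2 ± 2.71 FPKM with vehicle and 9.14 ± 0.673 FPKM with BPA (limma adjusted p = 0.274). They were picked as the highest of all tested genes, so their r carries no p.

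Of the other measures of the libraries given here, only the mitochondrial share had no overlap between the groups. The libraries held 15944081 to 17351540 recovered reads. Mitochondrially encoded transcripts took 7.02 to 8.33% of reads in vehicle, 9.66 to 9.85% in BPA replicates 1 to 3 and 14.2% in BPA replicate 4. That library detected 17174 genes, where the other libraries detected 19090 to 20845. It held the lowest of the 8 values in Egr1, Nr4a1, Klf2 and Btg2, beside 28.0% of all tested genes, and the highest in 24.1% of those. The transcripts of the members had a median GC content of 54.5%, beside 49.7% over all genes tested, and Klf6, the 1 with a higher mean in BPA, had the lowest of the 10 (42.4%). With a GC trend removed from each library, the members' median log2 change was -0.63 and 4 members were lower at an unadjusted p under 0.05, beside 4.06% of all genes in that fit. Vehicle replicate 4 carried skeletal muscle and fat markers, with a summed level of 5 muscle markers of 224 FPKM against 1.17 FPKM or less in the other libraries, and of 5 adipocyte markers of 86.6 FPKM against 1.52 to 37.3 FPKM. It also carried T and B cell markers, 5 genes summing to 28.4 FPKM against 0.0415 to 1.63 FPKM in the others, and it held the highest Klf2 value; without it the log2 change of Klf2 was -0.93. The summed proximal tubule markers, 1971 to 2315 FPKM in vehicle and 1677 to 2492 FPKM in BPA, were those of kidney tissue. Neutrophil markers, of which 3 of 4 were tested and all 3 of those were lower in BPA by mean, summed to 11.3, 8.58, 1.12 and 4.32 FPKM in vehicle replicates 1 to 4 and to 4.71, 2.94, 0.656 and 2.27 FPKM in BPA replicates 1 to 4. All tested markers were likewise lower for adipocytes (5), skeletal muscle (5), principal cells (3), T and B cells (2) and distal convoluted tubule (2). For endothelium (8), podocytes (4) and thick ascending limb (2) 0 were lower, and the other sets were divided. Without vehicle replicate 4 the members' median log2 change was -0.63. The part of GC content, mitochondrial share, lymphocyte markers and neutrophil markers in the members' change was not tested.

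Endothelial markers bear on Klf2 and Klf4, since both are endothelial genes in many tissues and whole kidney was sequenced. In bulk tissue, fewer cells of a type and less RNA per cell cannot be told apart. Of 8 endothelial markers, 0 were lower in BPA by mean and 1 was higher at an unadjusted p under 0.05, beside 4.18% of all genes tested. Their summed level was 35.7, 38.8, 13.6 and 16.7 FPKM in vehicle replicates 1 to 4 and 40.6, 47.4, 22.9 and 29.5 FPKM in BPA replicates 1 to 4, higher in replicates 1 and 2 of both groups. Set against this sum, Klf2 came to 25.5, 19.0, 42.7 and 56.3% in vehicle and to 10.4, 13.6, 12.2 and 4.99% in BPA. All 4 BPA ratios were below all 4 vehicle ratios, which held for 2.21% of tested genes set against the same sum. Klf4 came to 5.15 ± 2.19% in vehicle and 2.49 ± 0.883% in BPA (SD, n = 4), and its groups overlapped. Klf2 and Klf4 are also expressed outside endothelium.

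**Figure D4:**
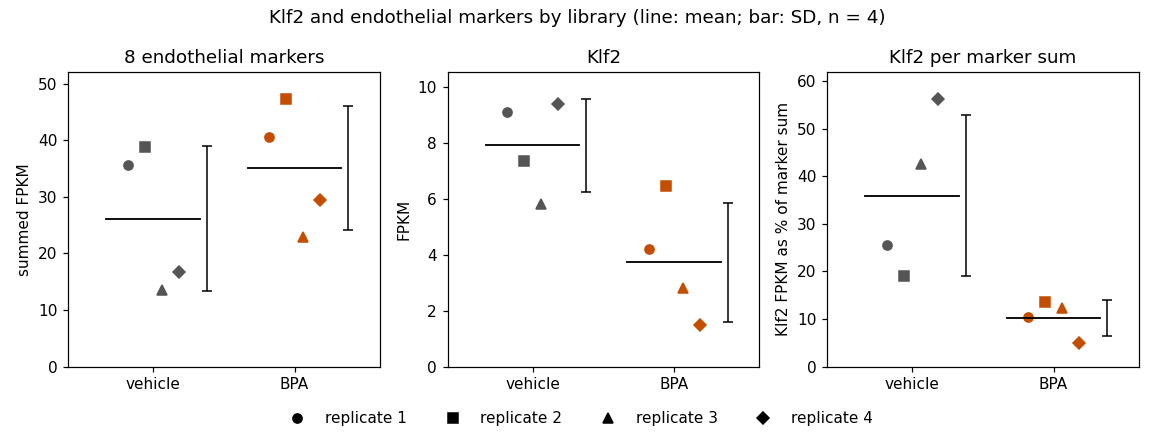
Summed FPKM of 8 endothelial markers, FPKM of Klf2, and Klf2 as a percentage of the marker sum (vertical axes) in each library, with the mean as a line and the SD as a bar (n = 4). The marker sums overlap between the groups, whereas the percentages lie at 19.0 to 56.3 in vehicle and 4.99 to 13.6 in BPA.

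Relatives of the members were compared as a list of 28 genes, of which 16 were tested. No relative passed limma's test. Of the 16, 11 were lower and 5 higher, with a median log2 change of -0.24. At an unadjusted p under 0.05 there were 5 lower and 0 higher, beside 6.83% and 4.18% of all genes tested. In 4 relatives (Ier5l, Klf10, Tob1 and Zfp36l1) all BPA values were below all vehicle values, beside 4.66% of all genes tested. Tob1, an antiproliferative relative of Btg2, was at 60.5, 66.1, 59.4 and 58.9 FPKM in vehicle and at 39.4, 40.1, 43.2 and 30.2 FPKM in the BPA libraries (log2 change -0.68, SE 0.128, limma adjusted p = 0.271). Ier5l, a relative of Ier5, was at 6.51, 9.47, 5.93 and 3.95 FPKM in vehicle and at 3.01, 3.09, 1.90 and 0.992 FPKM in the BPA libraries (log2 change -1.21, limma adjusted p = 0.321). Every relative of the BTG, TOB and ZFP36 kinds that was tested had a lower mean in BPA, 4 of 4 and 2 of 2.

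Zfp36l1, the relative of Zfp36 best known in development, was at 14.0 ± 4.80 and 7.89 ± 1.28 FPKM, and Zfp36l2 was at 19.5 ± 6.04 and 14.1 ± 1.07 FPKM (log2 changes -0.71 and -0.39). Tob2 had a log2 change of -0.56 and Btg1 of -0.16. The KLF relatives were divided, with 4 of 9 tested lower and 5 higher, a median log2 change of 0.02. Klf10, a gene induced by TGF-beta, was at 3.60 ± 0.420 FPKM with vehicle and 2.22 ± 0.440 FPKM with BPA (log2 change -0.52, limma adjusted p = 0.335). Klf9, a glucocorticoid target, was at 47.1 ± 2.70 and 48.6 ± 9.83 FPKM, and Klf15, likewise a glucocorticoid target, at 36.4 ± 3.68 and 29.8 ± 3.85 FPKM. The closest relatives of Egr1 and Nr4a1 were too low to test: Egr2 was at 0.362 FPKM or less in every library, Egr3 at 0.706 FPKM or less, Egr4 was listed at 0 in every library, and Nr4a3 at 0.136 ± 0.0629 FPKM with vehicle and 0.0274 ± 0.0224 FPKM with BPA. Nr4a2 was at 0.112 ± 0.0519 and 0.0771 ± 0.0180 FPKM.

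Regulators upstream of early response promoters went in both directions. Of 17 tested SRF, CREB, ERK and RSK genes, 10 were lower and 7 higher, with a median log2 change of -0.05 (0.02 with a GC trend removed). At an unadjusted p under 0.05 there were 2 lower (11.8%) and 1 higher (5.88%), beside 6.83% and 4.18% of all genes tested. Srf, the factor that binds CArG boxes, was at 11.7, 11.5, 11.5 and 9.34 FPKM in vehicle replicates 1 to 4 and at 6.35, 7.37, 8.39 and 7.78 FPKM in BPA replicates 1 to 4. Its groups did not overlap (log2 change -0.50, SE 0.114, limma adjusted p = 0.313). The CREB coactivator gene Crtc2 had a log2 change of -0.19 and the RSK kinase gene Rps6ka3 one of 0.27. Crtc3, another CREB coactivator gene, had one of -0.20. In the ERK5, MEF2 and CCM list, which acts on Klf2 and Klf4 in endothelium, 5 of 11 were lower and 6 higher (median log2 change 0.00). There Mef2d was at 7.35 ± 0.666 and 5.95 ± 0.470 FPKM (log2 change -0.27, limma adjusted p = 0.408), and Map2k5, the kinase of ERK5, at 8.32 ± 0.920 and 6.61 ± 1.43 FPKM. Ccm2 had a log2 change of -0.21 and Heg1 of 0.39.

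Nab1 and Nab2, corepressors that bind EGR proteins, had opposite signs. Nab2, itself induced by EGR1, was at 3.95, 3.04, 3.63 and 3.92 FPKM in vehicle and at 2.47, 2.68, 1.94 and 1.95 FPKM in the BPA libraries, with no overlap between the groups (log2 change -0.51, SE 0.120, limma adjusted p = 0.321). Nab1 was at 14.3 ± 1.94 and 18.1 ± 3.05 FPKM (log2 change 0.32, limma adjusted p = 0.463). Of 7 genes described as EGR1 targets, Nab2 among them, 5 were lower and 2 higher, with a median log2 change of -0.08. Only 3 of the 7 had a mean of at least 5 FPKM, and the median over those 3 was 0.10. F3, which encodes tissue factor, had a log2 change of -0.24 and Icam1, an adhesion molecule gene, of -0.08. The endothelial targets of KLF2 and KLF4 were close to 0 or uneven: Nos3 was at 0.686 ± 0.201 and 0.702 ± 0.215 FPKM, Thbd at 2.56 ± 1.46 and 3.19 ± 1.48 FPKM, and S1pr1 at 2.09 ± 1.53 and 1.90 ± 0.805 FPKM.

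Of 14 mRNAs described as bound by ZFP36, most of them cytokines, 11 were below the filter and 3 were tested. All 3 had a lower mean in BPA. Their median log2 change of -0.26 was -0.43 when vehicle replicate 3 was left out, -0.17 when vehicle replicate 4 was, -0.10 when both replicates 4 were and -0.13 with a GC trend removed, and -0.05 over 11 of the 14 with no filter on low values. Vegfa, the angiogenic growth factor, was at 36.6 ± 4.23 and 28.0 ± 3.44 FPKM (limma adjusted p = 0.386), Pim1 at 2.26 ± 0.797 and 1.68 ± 0.528 FPKM, and Myc at 1.33 ± 0.412 and 1.05 ± 0.507 FPKM. The 10 CCR4-NOT subunits were all tested, giving 5 lower and 5 higher, a median log2 change of 0.04 and 0 at an unadjusted p under 0.05 in limma. Of all genes tested, 6.83% were lower and 4.18% higher at that p. Cnot7, a catalytic subunit that binds BTG proteins, was at 7.57 ± 0.306 and 8.96 ± 1.23 FPKM.

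Other early response genes were lower more often than not. Of 40 listed, 36 were tested, of which 30 were lower and 6 higher, with a median log2 change of -0.29. At an unadjusted p under 0.05 there were 10 lower and 0 higher, beside 6.83% and 4.18% of all genes tested. None of the 36 passed limma's test over all genes. In 4 of the 36 (11.1%), Jun, Junb, Jund and Maff, the BPA values were all below the vehicle values, beside 4.66% of all genes tested. Jund is named after its values were seen. Maff, a small MAF factor, was at 2.09 ± 0.702 and 0.765 ± 0.460 FPKM (log2 change -0.82, limma adjusted p = 0.365). Cebpb, a bZIP factor of acute phase and stress responses, had a log2 change of -1.54. The median over the 36 was -0.16 after a GC trend was removed. Clock genes, some of them also early response genes, had 6 of 13 lower and 7 higher, with a median log2 change of 0.01. Over the alternatives this median ran from -0.19 to 0.50, the latter over only the 4 with a mean of at least 5 FPKM. In 9 of the 13, replicates 1 and 2 of both groups did not overlap replicates 3 and 4, beside 7.86% of all genes tested, with 7 lower and 2 higher in replicates 1 and 2. Dbp, a clock output gene named after its values were seen, was at 0.876, 4.34, 31.6 and 30.7 FPKM in vehicle replicates 1 to 4 and at 2.93, 9.02, 44.2 and 22.4 FPKM in BPA replicates 1 to 4. Npas2, a clock activator gene named likewise, ran the other way, at 11.1, 6.19, 0.229 and 0.204 FPKM in vehicle and at 6.38, 4.36, 0.192 and 0.253 FPKM in BPA. Of the 10 members, Ier5 alone divided the libraries in this manner. What sets replicates 1 and 2 apart was not tested. Cry1, a repressor of the clock, was at 3.50 ± 1.26 and 0.926 ± 0.341 FPKM, and Nr1d1 at 7.76 ± 5.09 and 17.3 ± 2.80 FPKM (log2 changes -1.20 and 1.20, limma adjusted p = 0.271 and 0.365).

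**Figure D5:**
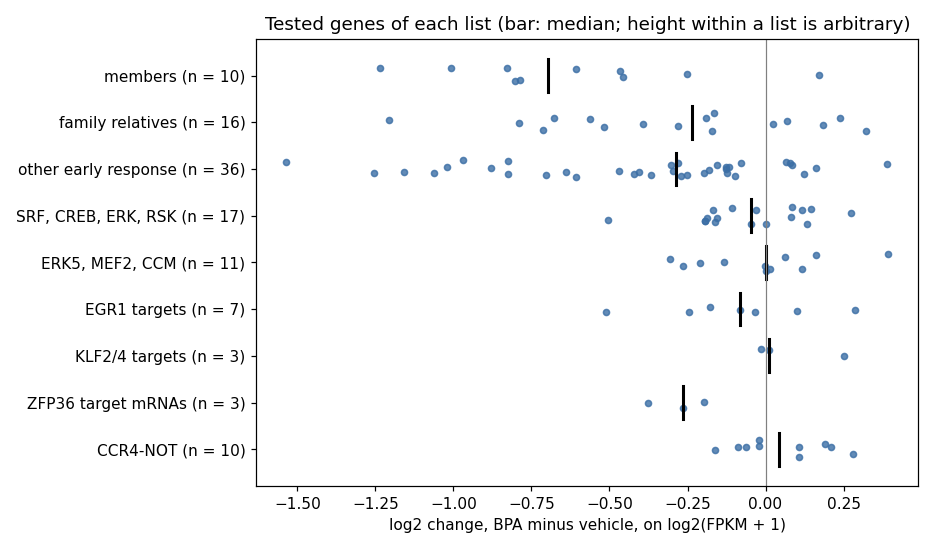
Log2 change, BPA minus vehicle, on log2(FPKM + 1) (horizontal axis) of every tested gene in the members and 8 related lists (rows), with the median as a bar. The members' median is -0.70 and that of the other early response genes -0.29, while the CCR4-NOT median is 0.04 and the ERK5, MEF2 and CCM median 0.00.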

How the data were processed

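Polyadenylated RNA of kidney was measured in 4 BPA and 4 vehicle libraries. The authors deposited FPKM values for 54532 genes in a single table, with gene lengths and coordinates. The submitters' processing notes name DESeq2 1.20.0 and GRCm38 without saying what each was for, and the sources used here do not name an aligner, a counter or a strand setting. Columns labelled BPA were matched by name, and the remaining 4, which the labels leave only vehicle to fill, were numbered by the digit in their names.

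Multiplying FPKM by gene length, and by the library size that its smallest steps imply, gave whole reads (within 0.01 reads in 100% of values up to 20 reads), and Poisson intervals were taken from them. The test was limma (3.58.1, R 4.3.3), with trend and robust settings and no covariate, applied to log2 of FPKM plus 1 over the 13376 genes with a mean of at least 0.5 FPKM. Benjamini-Hochberg adjustment covered all of them. The fit was also run on simulated reads, which had the same relative spread in every gene and no division among replicates, unlike these data. All members are named. In other lists up to 4 genes with the smallest p are named, plus a fixed set of relatives and regulators. A gene of the EGR1 target list is not reported here by itself. Members, lists and alternatives were chosen with earlier results of these data known. GC content is that of the longest GENCODE M21 transcript, where all 10 members have the deposited coordinates. Promoters are from RefSeq (GRCm38.p6). Python 3.11.15, numpy 2.4.6 and matplotlib 3.10.9 did the rest.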

Additional observations from a re-analysis of the deposited data

Results flagged for a closer look

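Klf4 in BPA replicate 3 was at 0.322 FPKM, far below the other BPA libraries at 1.05 to 1.13 FPKM. It rested on 16 reads (exact 95% Poisson interval 9.15 to 26.0) against 53 to 58 in the others. It was the 1 library to stand apart by Dixon's test in 20 groups of 4 (10 members in each of the 2 treatments), and chance flags about 1 in 20. Without it the log2 change of Klf4 was -0.09 in place of -0.25.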

How the results depend on the processing

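No member passed the threshold under any of 25 alternatives, and the members' median log2 change stayed negative under each, from -0.81 with limma-voom on recovered reads to -0.49 within replicates 1 and 2. It was -0.76 to -0.57 when single libraries were left out, and -0.73 after rescaling to a common total. The count of members whose BPA values all lay below all vehicle values was 2 to 6 with single libraries left out. It was 6 without both replicates 2 (beside 11.4% of all genes). With only 2 libraries a group it was 8 within replicates 1 and 2 (beside 23.0%). It was also 8 within replicates 3 and 4 (beside 26.1%), where Klf6 lay the other way. A filter of 5 FPKM left 4 members and a count of 1 (beside 383 of the 6381 genes then tested). Same-numbered libraries correlated at -0.03 to 0.14 in their deviations from the group means, over 0.1 in 2 of 4 pairs (vehicle replicate 4 correlated best with BPA replicate 3, at 0.19), so the numbers were not taken as pairs. With the replicate block the members' median was -0.70, 0 members passed and 7 had an unadjusted p under 0.05 (6.60% of all genes were lower at that p), against 6 without the block (6.83%). The smallest adjusted p of a member under any alternative was 0.114, for Zfp36 with library weights. Klf6 kept a higher mean in BPA under every alternative that tested it.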
